A study of Homo sapiens with 3 samples.

Results

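The histone genes examined here are the replication-dependent copies, which lie in clusters on chromosomes 6 and 1, and the data are the peaks of XPB and XPD over those clusters. XPB and XPD are the helicase subunits of TFIIH, a factor that melts DNA at promoters so that RNA polymerase II can start and that unwinds damaged DNA in nucleotide excision repair. Members were all peaks with a summit on chromosome 6 from 26000000 to 27900000 or on chromosome 1 from 149750000 to 149900000 (hg19), a rule of position alone, though the regions were proposed with earlier results of these data in view. They were 95 of 36125 peaks: 52 of the 21555 XPB peaks and 43 of the 14570 XPD peaks, over 2.05 Mb. The series held 3 samples of HT1080, an established human fibrosarcoma cell line with no treatment given in the labels. Crosslinked chromatin of 1 pool was enriched with a rabbit polyclonal antibody against XPB, enriched with one against XPD, or sequenced as input DNA without enrichment. Each antibody had 1 library and 1 peak list, so no test between the proteins was possible. Intervals given below are 95% and cover counting error only. Protocol text common to the samples names an antibody against another protein, CSB, and the antibody field of each sample was followed.

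Replication-dependent histone genes encode the core histones H2A, H2B, H3 and H4 and the linker histone H1, which package DNA into nucleosomes. They are transcribed by RNA polymerase II, mostly in S phase, in a nuclear compartment called the histone locus body, and their messages end in a stem-loop in place of a poly(A) tail. TFIIH acts at such promoters by melting DNA and through its kinase CDK7, which phosphorylates the polymerase tail. The older gene names HIST1 and HIST2 stand for the clusters on chromosomes 6 and 1. RefSeq (GRCh38.p14) lists 55 HIST1 and 11 HIST2 genes. On chromosome 6 it orders them as a run of 32 from H1-1 to H4C8, a run of 5 from H2BC11 to H2AC12 and a run of 16 from H2BC13 to H2BC17, with the testis pair H2AC1 and H2BC1 outside these runs. The stretch between the first and the second run holds no histone gene of the list but 47 tRNA genes and 6 butyrophilin (BTN) genes, and the stretch before the third run holds 51 tRNA genes. This order is of another assembly than the peaks, so no peak was assigned to a gene.

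Promoters of these genes share short elements, and 1 of each histone family is shown so that these elements can be read. Each is the first gene of its family in the run from H1-1 to H4C8 that has a promoter in the RefSeq table (GRCh38.p14), printed 5′ to 3′ on the strand of the gene as the 120 bases before the start of transcription; H3C1 lies on the plus strand and the others on the minus strand. Capitals mark the TATA box TATAAA, the CCAAT box CCAAT, the octamer ATTTGCAT and the H4 element GGTCCG, searched on both strands.
H1-1: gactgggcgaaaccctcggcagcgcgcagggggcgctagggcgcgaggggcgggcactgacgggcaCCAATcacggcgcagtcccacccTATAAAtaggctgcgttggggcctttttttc
H2AC4: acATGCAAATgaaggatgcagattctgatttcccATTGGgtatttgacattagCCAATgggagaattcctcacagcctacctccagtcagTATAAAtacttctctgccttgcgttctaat
H2BC3: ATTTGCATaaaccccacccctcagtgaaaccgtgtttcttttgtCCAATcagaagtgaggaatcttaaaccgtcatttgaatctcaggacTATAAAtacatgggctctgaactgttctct
H3C1: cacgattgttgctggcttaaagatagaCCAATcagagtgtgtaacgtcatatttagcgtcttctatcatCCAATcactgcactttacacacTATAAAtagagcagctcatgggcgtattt
H4C2: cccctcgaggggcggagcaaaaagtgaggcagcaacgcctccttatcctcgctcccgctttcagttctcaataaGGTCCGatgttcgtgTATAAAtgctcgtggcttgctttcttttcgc
All 5 hold TATAAA, which begins 29 to 31 bases before the start. The window ran from 250 bases before to 50 after the start. Entries for the same window under several gene names were counted once, under 1 name. After this, 60 of the 66 genes were left with an entry, with 64 starts. TATAAA was in 68.8% of these starts and in 11.6% of all 34943 promoters of the table. By family it was in 3 of 6 H1, 12 of 14 H2A, 14 of 19 H2B, 9 of 13 H3 and 6 of 12 H4 starts. CCAAT was in 85.9% against 34.6%; it was in all starts of H1, H2A, H2B and H3 genes and in 3 of 12 of H4 genes. The octamer was in 40.6% against 1.77%, mainly in H2A (10 of 14) and H2B (15 of 19). GGTCCG was in 11 of 12 H4 starts and in 11.2% of all promoters. These matches describe the letters of the windows and were not set against the peaks.

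Both helicases had a high density of peaks over the clusters. XPB had 25.4 peaks per Mb there (18.9 to 33.3), and the rest of chromosomes 6 and 1 had 7.46 (7.20 to 7.73), so the clusters held 3.40 times as many per Mb (2.53 to 4.47). XPD had 20.98 per Mb (15.2 to 28.3) against 4.88 (4.67 to 5.10), a ratio of 4.30 (3.10 to 5.81). Among peaks with a score of 300 or more the ratio was 11.6 for XPB (7.64 to 17.01) and 14.98 for XPD (8.87 to 23.9). The peak caller's score is its p-value as a negative log10 multiplied by 10, and listed peaks start at 150. The neighbourhood was dense as well. The 1 Mb on each side of the clusters held 16.3 XPB and 10.8 XPD peaks per Mb, and against these flanks the XPB ratio for all peaks was 1.56 (1.06 to 2.28) and the XPD ratio 1.95 (1.25 to 3.05). With scores of 300 or more, a setting added once values were known, the flank ratio was 3.64 (1.88 to 7.34) and 4.63 (1.94 to 12.2). The flanks differed by chromosome. Those on chromosome 6 had 9.5 peaks per Mb in each list, and its cluster held 2.77 times as many for XPB (1.60 to 4.98) and 2.27 times as many for XPD (1.29 to 4.14), values also added later. On chromosome 1 they reached 23 per Mb for XPB and 12 for XPD, and its cluster, with 2 peaks of each list, was at a ratio of 0.580 (0.0682 to 2.22) and 1.11 (0.127 to 4.48) to them.

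Within the chromosome 6 cluster the peaks were unevenly spread. The first block, from 26000000 to 26300000, held 18 peaks of each list, 60 per Mb (35.6 to 94.8). In the last block, from 27000000 to 27900000, XPB had 25 peaks, 27.8 per Mb (17.98 to 41.0), and XPD had 18, 20 per Mb (11.9 to 31.6). The interval between them held 7 XPB peaks, 10 per Mb (4.02 to 20.6), and 5 XPD peaks, 7.14 per Mb (2.32 to 16.7). The ratio of the middle interval to the rest of chromosomes 6 and 1 was 1.34 for XPB (0.538 to 2.76) and 1.46 for XPD (0.475 to 3.42), and both intervals include 1. In the first block the ratio was 8.04 for XPB (4.76 to 12.7) and 12.3 for XPD (7.27 to 19.5), and in the last block 3.72 (2.41 to 5.51) and 4.098 (2.42 to 6.49). Against the chromosome 6 flanks the first block stood at 6.32 in each list (3.13 to 12.7), the last block at 2.92 for XPB (1.55 to 5.62) and 2.11 for XPD (1.04 to 4.24), and the middle interval at 1.05 (0.374 to 2.62) and 0.752 (0.219 to 2.08).

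**Figure D1:**
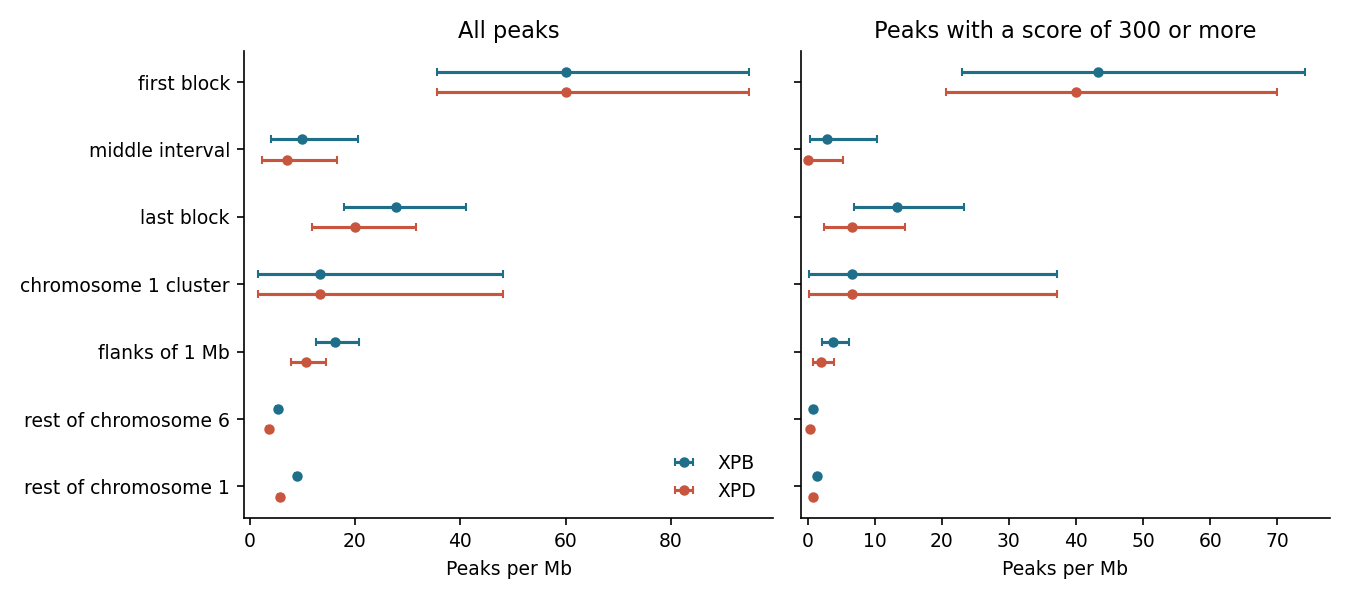
Peaks per Mb (x axis) in each block of the clusters, in the 1 Mb flanks and in the rest of chromosomes 6 and 1, for all peaks (left) and for peaks with a score of 300 or more (right). Points are densities of 1 library per antibody and bars are exact 95% Poisson intervals; the first block stands at 60 per Mb in both lists, and the middle interval at 10 for XPB and 7.14 for XPD.

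Strong peaks set the first block apart more than peak number did. There 13 of 18 XPB peaks and 12 of 18 XPD peaks scored 300 or more, 43.3 and 40 per Mb. Against the rest of chromosomes 6 and 1 the ratio of such strong peaks was 36.9 for XPB (19.5 to 63.6) and 64.6 for XPD (33.0 to 114.9). Over both clusters such peaks were 28 of 52 for XPB (53.8%, 39.5 to 67.8), where 14.3% of the whole XPB list reached that score, and 19 of 43 for XPD (44.2%, 29.1 to 60.1), where 11.9% of the XPD list did. Outside the clusters on the same chromosomes the shares were 15.8% and 12.7%. In the flanks 3 of 19 XPB and 0 of 19 XPD peaks on chromosome 6 and 12 of 46 and 8 of 24 on chromosome 1 reached that score. In the last block 12 XPB and 6 XPD peaks scored 300 or more. The middle interval had 2 such XPB peaks and no XPD peak, for which the exact interval runs from 0 to 5.27 per Mb.

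Some of the best-scoring peaks of the genome were members. Of the 100 highest-ranked XPB peaks (0.464% of the list), 7 were members, and of the 100 highest-ranked XPD peaks (0.686% of the list), 5 were. The rest of chromosomes 6 and 1, with 416.95 Mb, held 26 and 27, of which 3 in each list were in the chromosome 1 flanks. The median score of members was 337.0 for XPB (quartiles 196.1 and 655.3) and 268.4 for XPD (194.6 and 529.2). Outside the clusters it was 192.6 and 187.5. By block, XPB scores had a median of 640.9 in the first block, 224.8 in the middle interval and 295.1 in the last block, and the median XPD score was 421.9, 169.6 and 252.2. The order of the blocks by median score was thus the same in both lists.

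Summits of members were tall. Height is the number of fragments piled up at the summit and is not scaled to depth, so it is compared within a list only. The median was 19 fragments for XPB members (lowest 8, highest 82) and 11 outside the clusters. For XPD it was 20 (10 to 89) and 13. Summits of 20 fragments or more were 25 of 52 XPB members (48.1%, 34.0 to 62.4) against 6.64% of the whole list, and 22 of 43 XPD members (51.2%, 35.5 to 66.7) against 8.74%. In the flanks the median height was 14 for XPB and 15 for XPD. Within the score class of 150 to 200 the median was 12.5 for XPB members against 11 outside the clusters and 16 against 12 for XPD, and from 200 to 300 it was 15.5 against 12 and 16 against 13. From 300 upward it was 24.5 against 17 and 32 against 19, but that class has no upper bound and 7 of its 28 XPB members were among the 100 highest-ranked peaks, against 26 of 490 outside. In the chromosome 6 flanks the median was 15 for XPB and 14.5 for XPD at scores of 150 to 200. At 200 to 300 it was 15 and 17 there, near the values of the members. In the chromosome 1 flanks these medians were 10 and 13.5, then 13 and 11.5. By block the median height was 24.5 for XPB and 27 for XPD in the first block, 15 and 19 in the middle interval and 18 and 16 in the last block, so the last 2 differ in order between the lists. Peak width differed less, with medians of 914.5 bp against 827 bp for XPB and 913 bp against 939 bp for XPD.

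**Figure D2:**
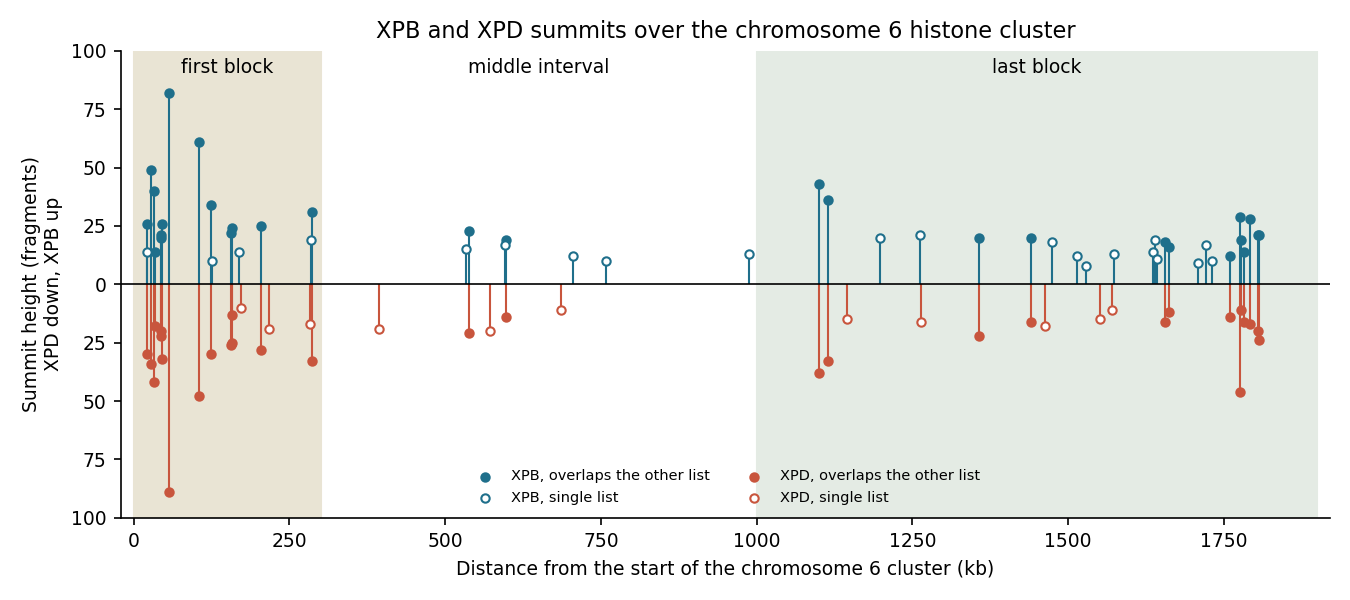
Summit height in fragments (y axis, XPB upward and XPD downward) at each member on chromosome 6, by distance in kb from the start of the cluster; filled points overlap a peak of the other list and open points do not. The tallest summits, 82 for XPB and 89 for XPD, stand at the same place in the first block, and the middle interval reaches 23 and 21.

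The tallest site of the clusters was in the first block, on chromosome 6 from 26055751 to 26057038 for XPB and from 26055751 to 26057059 for XPD. Its summits had 82 XPB and 89 XPD fragments, 17 bp apart, with scores of 1911 and 1437; only 35 XPB and 29 XPD summits of the whole lists were as tall. The next tallest XPB peak spanned 26103975 to 26105101, where 61 XPB and 48 XPD fragments were stacked at summits 8 bp apart. Of the 10 tallest members of each list, all 10 overlapped the other list, and 9 sites were in both sets of 10. Overlap was common among strong peaks in general. On all chromosomes 73.2% of XPB and 87.1% of XPD peaks scoring 300 or more overlapped the other list. No share was computed for summits of equal height.

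Other tall members of the first block repeated this closeness. The peak from 26026923 to 26027802 had 49 XPB and 34 XPD fragments at summits 5 bp apart. At 26031778 to 26032574 the heights were 40 and 42, and the summits 1 bp apart. The peak from 26285281 to 26286351, near the far edge of the block, had 31 and 33 fragments. At these 3 sites the summits of the lists were thus at most 37 bp apart. The site from 26123066 to 26125038 was in the XPB set of 10 alone, with 34 fragments against 30 for XPD and summits 432 bp apart, and the site from 26045268 to 26046120 in the XPD set alone, with 32 against 26 for XPB. Another 4 shared sites of the block had 26 XPB and 30 XPD fragments (26020392 to 26021609), 24 and 25 (26158142 to 26158875), 25 and 28 (26204588 to 26205331), and 14 and 18 (26033352 to 26034009).

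The last block had its tall sites at its ends. Early in it, the XPB peak from 27100067 to 27101410 had 43 fragments and its XPD partner 38, 4 bp away, and the XPB peak from 27113984 to 27115407 had 36 and its partner 33. Further in, the shared peaks before 27774635 were lower, with 12 to 20 XPB and 12 to 22 XPD fragments at 5 sites. Near its far end the XPB peak from 27774710 to 27776589 had 29 fragments and its XPD partner 46, the tallest XPD summit of the block. A run of shared sites followed up to 27807143, among them peaks from 27791533 to 27792066, with 28 XPB and 17 XPD fragments, and from 27805764 to 27807143, with 21 and 24. From 27807144 to the end of the region, 92.9 kb, neither list had a peak. In the middle interval the tallest XPB summit had 23 fragments (26537333 to 26539144) and its XPD partner, the tallest there too, 21, with a score of 152.6 near the floor of the list. The longest stretch without a peak, 228.7 kb from 26758647 to 26987315, was also in that interval.

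The chromosome 1 cluster held 1 strong site. The XPB peak from 149857639 to 149859711 had 43 fragments and a score of 1560, rank 48 of the list, and the XPD peak from 149857711 to 149860365 had 50 fragments and a score of 2018, rank 21. Their summits were 5 bp apart, and both peaks were wide, 2073 and 2655 bp. The other members there were an XPB peak from 149898946 to 149900436 with 15 fragments and an XPD peak from 149870822 to 149871697 with 16, neither of which overlapped the other list. From 149750000 to 149857638 no peak was listed, 107.6 kb of a region of 0.15 Mb. Several HIST2 genes are near-identical copies, and how reads matching several places were treated is not given in the sources used here; its part in this stretch was not tested. With 2 peaks of each list, the density of 13.3 per Mb has an interval of 1.61 to 48.2 and cannot be told from that of the rest of the chromosomes.

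Peaks of the first block came close together. The median distance between neighbouring summits of a list within a block was 12934 bp for XPB (quartiles 4306 and 45002) and 13838 bp for XPD (5065 and 41107). In the rest of chromosomes 6 and 1 it was 32204 and 48705 bp, and in the flanks 13956 bp for XPB, close to the value of the clusters, and 22294 bp for XPD. Gaps of 2 kb or less were 16.7% of XPB and 17.9% of XPD gaps in the clusters and 14.5% and 5.13% in the flanks; the 9 XPB gaps of this kind in the flanks were all on chromosome 1. In the first block it was 5436 bp for XPB and 9956 bp for XPD, and 6 of 17 XPB gaps (35.3%) and 5 of 17 XPD gaps (29.4%) were of 2 kb or less, where 6.89% and 5.02% were outside the clusters. Such close neighbours were the XPB peaks from 26043242 to 26043922, from 26044108 to 26044653 and from 26045349 to 26046277, with 20, 21 and 26 fragments. All 3 had an XPD partner, with 20, 22 and 32. At 1 place the lists divided the signal differently: the XPB peak from 26156379 to 26157927, with 22 fragments, overlapped 2 XPD peaks, from 26156195 to 26156994 with 26 and from 26157053 to 26157900 with 13.

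Windows of 100 kb gave the same picture at a finer scale. Between 26000001 and 26100000 there were 9 XPB peaks and 8 of XPD, and 0.610% and 0.431% of the 27857 autosomal windows held as many. That window had 6 XPB and 5 XPD peaks with a score of 300 or more, and only 15 and 18 windows on the autosomes, itself included, reached those counts. The next window held 6 peaks of each list, 4 of them with such scores in each. The densest window of the last block, 27700001 to 27800000, contained 8 XPB peaks and 5 of XPD. Of the 19 windows of the cluster, 5 held no XPB peak and 5 no XPD peak, while the empty share was 65.3% and 72.8% over all autosomes.

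Counted by peak, most members overlapped the other list, while counted by merged site 46.9% had both proteins. Of the XPB members, 30 of 52 overlapped an XPD peak by at least 1 bp (57.7%, 43.2 to 71.3), where 26.6% of the whole XPB list did and 28.4% of the rest of chromosomes 6 and 1. Of the XPD members, 31 of 43 overlapped an XPB peak (72.1%, 56.3 to 84.7), where 38.7% of the whole XPD list did and 42.4% of the rest. In the chromosome 6 flanks the shares were 12 of 19 XPB peaks (63.2%, 38.4 to 83.7) and 13 of 19 XPD peaks (68.4%, 43.5 to 87.4), and in the chromosome 1 flanks 39.1% and 66.7%. The intervals of the clusters and the chromosome 6 flanks overlap. With 19 flank peaks in each list, these shares cannot settle whether the clusters differed from the flanks. All 12 shared XPB peaks of the chromosome 6 flanks lay on the side after the last block. The flank before the first block, the densest block, thus added no shared XPB peak. Merged, the members formed 64 sites, of which 30 had both proteins, 22 XPB only and 12 XPD only. In the first block 14 of 21 sites had both, in the middle interval 2 of 10, in the last block 13 of 30 and on chromosome 1 the 1 strong site of 3.

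The higher overlap went with the higher scores. Among XPB peaks scoring 300 or more, 27 of 28 members were shared (96.4%, 81.7 to 99.9), and 72.2% (68.1 to 76.2) in the rest of chromosomes 6 and 1. The XPD partner could have any score. Of the same 28 members, 64.3% (44.1 to 81.4) overlapped an XPD peak that also scored 300 or more. Among XPB peaks scoring 200 to 300, 1 of 10 members was shared (10%, 0.253 to 44.5) against 33.9%, and among those of 150 to 200, 2 of 14 (14.3%, 1.78 to 42.8) against 12.9%. For XPD, 18 of 19 members scoring 300 or more were shared (94.7%, 73.97 to 99.9) against 89.9%, 6 of 11 (54.5%, 23.4 to 83.3) against 54.6% at 200 to 300, and 7 of 13 (53.8%, 25.1 to 80.8) against 26.1% (23.6 to 28.7) at 150 to 200. The intervals were apart for XPB peaks of 300 or more alone, a class without an upper bound, and at lower scores the members were few. In the flanks of 1 Mb, 13 of 15 XPB peaks of 300 or more were shared (86.7%, 59.5 to 98.3). That interval overlaps the one of the members. At 200 to 300 the chromosome 6 flanks had 7 of 9 XPB peaks shared (77.8%, 39.99 to 97.2).

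**Figure D3:**
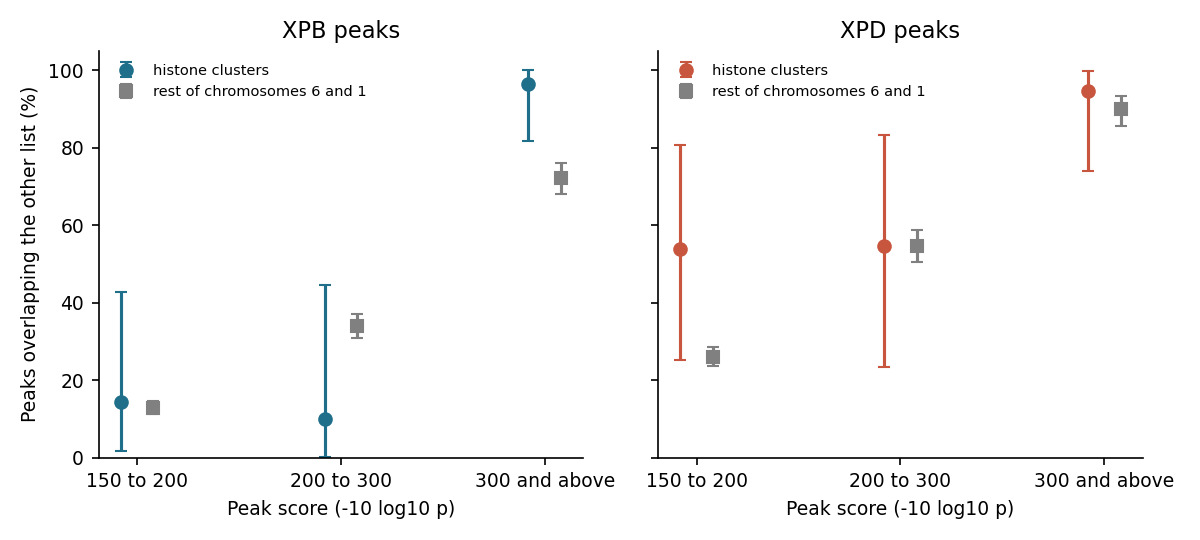
Percentage of peaks that overlap the other list (y axis) in 3 classes of peak score (x axis), for members (circles) and for the rest of chromosomes 6 and 1 (squares), with exact 95% binomial intervals. XPB members with a score of 300 or more stand at 96.4% and those outside the clusters at 72.2%, while the intervals for members at lower scores are wide.

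Members with no partner mostly had low scores, as did such peaks of the whole lists. Of the 22 XPB members without an XPD peak, 21 scored under 300 (95.5%, against 94.8% of single-list XPB peaks on all chromosomes), and their heights ran from 8 to 21 fragments. Of the 12 XPD members without an XPB peak, 11 scored under 300 (91.7%, against 97.5%), with heights from 10 to 20. The exception for XPB was the peak from 26283898 to 26285095, with 19 fragments and a score of 338.2, and the nearest XPD summit was 774 bp away. For XPD it was the peak from 26216362 to 26217598, with 19 fragments and a score of 335.8, and the nearest XPB summit was 11842 bp away. Both lay in the first block. Single-list members lay a median of 17754 bp (XPB, 3052 to 37756) and 12404 bp (XPD, 3052 to 23669) from the nearest summit of the other list. In the rest of chromosomes 6 and 1 the medians were 27336 and 17685 bp, within those intervals.

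Where both lists had a peak, most summits lay close together. Reciprocal best overlaps gave 30 pairs among the members, with a median summit distance of 33.5 bp (17 to 77), where the 852 pairs in the rest of chromosomes 6 and 1 had 83 bp (74 to 99). Distances of 50 bp or less were found in 18 of the 30 (60.0%, 40.6 to 77.3), and in 38.6% (35.3 to 41.98) outside the clusters. Short distances were also found beside the chromosome 6 cluster, but only on the side after the last block. In the chromosome 6 flanks the pairs, all on that side, had distances of 6, 2, 1, 9, 188, 132, 81, 47, 92, 2, 8 and 47 bp. The first block had a median of 25.5 bp (5 to 155) with 10 of 14 pairs within 50 bp, and the last block 71 bp (10 to 222) with 6 of 13, which is near the value outside the clusters. The intervals of these blocks overlap. Of the 30 pairs, 22 were within 100 bp. Among pairs with both scores at 300 or more, 13 of 17 members (76.5%, 50.1 to 93.2) and 50.9% (42.9 to 58.9) of the others were within 50 bp, and these intervals overlap. The largest distance, 880 bp, was at the site with 2 XPD peaks, where the XPB peak paired with the lower of them by overlap.

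Heights at the paired members rose and fell together. Spearman's rho between XPB and XPD heights was 0.88 over the 30 pairs and 0.60 over the 852 other pairs of the 2 chromosomes, and Pearson's r on the log2 scale was 0.87 and 0.81. With both scores at 300 or more, rho was 0.90 over 17 member pairs and 0.79 over 159 others. Pearson's r was then 0.88 for members and 0.90 for the others, so the contrast was smaller or absent. The points share their libraries and 1 chromatin pool, and rho is given as a description. Over all members the quartiles of height lay further apart than outside the clusters. They were 14 and 25.25 against 10 and 14 for XPB, and 16 and 30 against 11 and 16 for XPD. Outside the clusters the highest values were larger, 3531 XPB and 2583 XPD fragments. The log2 ratio of XPD over XPB fragments had a median of 0.03 in the clusters (-0.18 to 0.14) and 0.11 over all 5536 pairs, with no adjustment for depth. No member pair departed from that genome-wide median by a factor of 2 or more, and each of the 30 counting intervals included it. Most pairs on all chromosomes were within that factor too, as their log2 ratio had quartiles of -0.19 and 0.38. The exact share over all pairs was not computed, so this is not a trait of the clusters. Among pairs with 20 fragments or more in at least 1 list, the largest departure toward XPD was at the chromosome 6 site from 27774710 to 27776589 (29 and 46 fragments, log2 0.56, -0.14 to 1.28). The largest toward XPB was at the site with 2 XPD peaks (22 and 13, log2 -0.87, -1.98 to 0.19), where the taller XPD peak of 26 fragments was left unpaired.

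**Figure D4:**
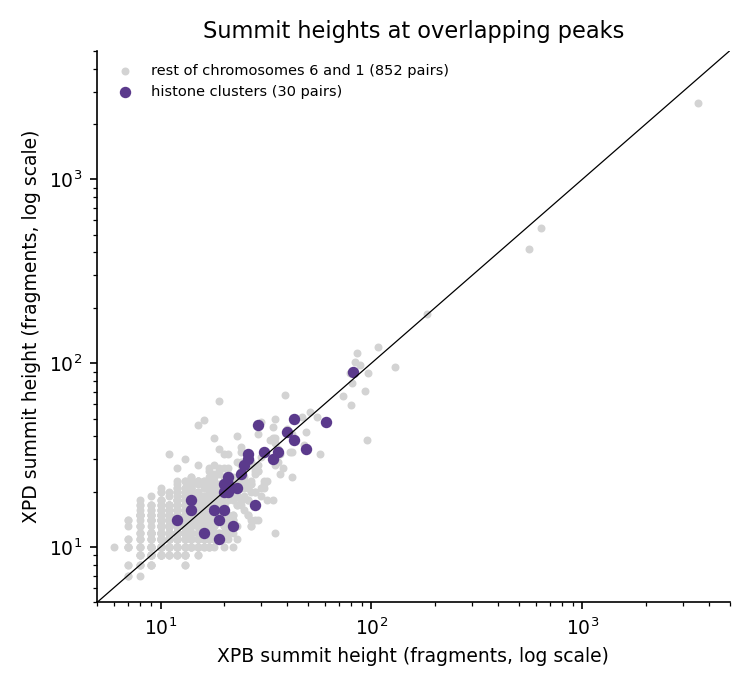
XPD summit height against XPB summit height (both in fragments on log axes) at pairs of overlapping peaks; purple points are the 30 pairs of the histone clusters, grey points the 852 pairs of the rest of chromosomes 6 and 1, and the line marks equal height. The purple points follow the line up to 82 XPB and 89 XPD fragments.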

How the data were processed

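Peaks came from 1 XPB and 1 XPD ChIP library of HT1080 cells. The submitters' processing notes name Bowtie 0.12.7, MACS 1.4 and hg19; caller settings, the control and read depth are not given in the sources used here. The score the authors deposited was read as the negative log10 of MACS's p-value multiplied by 10 (lowest 150, highest 3100), and the deposited summit signal is the pileup height in fragments, read after the usual MACS layout. No file of the input was used.

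Members were peaks with their summit in a cluster, with 1-based coordinates. The rest of a chromosome ran from its first to its last peak. Densities carry exact Poisson intervals, ratios exact conditional binomial intervals, shares Clopper-Pearson intervals and medians order-statistic intervals. With 1 library per antibody no p-value is given. Named peaks were the 10 tallest of each list, those on chromosome 1, single-list members scoring 300 or more, the tallest of each block and the most divergent pairs; close neighbours and less tall shared sites were chosen after their values were seen. Members and lists were chosen with earlier results of these data known. Overlap and interval functions were tested on simulated data. Python 3.11.15, numpy 2.4.6, pandas 2.3.3, scipy 1.17.1 and matplotlib 3.10.9 were used. No hg19 sequence or annotation was used.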

Additional observations from a re-analysis of the deposited data

How the results depend on the processing

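Of 66 alternatives, 47 stayed within the counting interval of the reported value, 19 moved outside it and 0 reversed. Scores of at least 200 moved the density ratio to 5.49 for XPB and 7.26 for XPD, the last block to 17.8 per Mb for XPB and the middle interval to 0 per Mb for XPD. Scores of at least 300 in both lists moved the ratio to 11.6 and 14.98, the overlap share of XPD to 94.7%, the median heights to 24.5 and 32, the density per Mb of the middle interval to 2.86 for XPB and 0 for XPD and that of the last block to 13.3 and 6.67; fewer peaks enter by construction. Against the flanks of 1 Mb the ratio was 1.56 and 1.95. For the chromosome 6 cluster against the rest of chromosome 6 alone, which changes members and comparator together, it was 4.98 and 5.90; with the comparator kept, an alternative added after seeing the data, it was 3.53 and 4.42. Against its own flanks, also added, it was 2.77 for XPB and 2.27 for XPD. Without the first block it was 2.93 for XPD. Taking peak intervals in place of summits changed no member, so those settings are uninformative. No paired analysis was possible because each antibody has 1 library, and leaving out a replicate was not possible for the same reason. Read depth is unknown and peaks scoring under 150 are not listed, so a missing peak does not show that the protein was absent.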
